A study of Mus musculus with 8 samples.

Results

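Interferon-stimulated genes were examined in the livers of *Apoe*-/- mice treated with isoginkgetin (ISOGK), a biflavonoid of *Ginkgo biloba* that the study used as an inhibitor of ATP-citrate lyase. The set was chosen by symbol and held 9 genes, *Isg15*, *Ifit1*, *Ifit2*, *Ifit3*, *Irf7*, *Oasl2*, *Rsad2*, *Usp18* and *Bst2*, of the 16540 genes in the deposited table. The comparison was between 4 vehicle-treated and 4 ISOGK-treated male mice. All carried the germline *Apoe* deficiency, which raises plasma cholesterol, so the genotype did not differ between the groups. Nor did the diet, as all were fed a high cholesterol diet, called a Western diet in a heading of the paper. It was begun before the ISOGK treatment. ISOGK was given by intraperitoneal injection at 20 mg/kg/day for 8 weeks, the vehicle columns of the table are named for the solvent DMSO, and the age of the mice is not given in the sources used here. That each library came from a separate mouse rests on the labels, so the p-values measure the spread between these libraries.

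Type I interferons bind a cell surface receptor of *Ifnar1* and *Ifnar2*, whose kinases pass the signal to transcription factors. These bind the interferon-stimulated response element (ISRE) before the start of many antiviral genes, whereas the response to interferon gamma runs through another element, the gamma-activated site (GAS). In liver, hepatocytes as well as Kupffer cells and endothelial cells respond to interferon, and a low basal level of these genes is present without infection.

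The ISRE windows are shown because this element links several of the members to interferon, although genes picked as interferon-stimulated are not independent of it. Promoters of RefSeq (GRCm38.p6), from 250 bases before to 50 bases after a start, were available for 8 of the 9 genes and were searched on both strands for GAAA, any 2 bases and GAAA again, which reads TTTC, any 2 bases and TTTC on the other strand. A match was found for 5 of the 8 genes (62.5%), against 3.44% of 32851 promoters, 3.82% of the genes of the count table with a promoter, and 35.5% of 93 genes from other interferon lists. Each window below holds the matches with 20 bases on either side and is written 5′ to 3′ on the strand of the gene, with the matched letters in capitals. The windows lie at chr4:156200855-156200916 on the minus strand for *Isg15*, chr19:34640765-34640833 on the plus strand for *Ifit1*, chr19:34583353-34583436 on the plus strand for *Ifit3*, chr12:26456543-26456592 on the minus strand for *Rsad2* and chr8:71537567-71537622 on the minus strand for *Bst2*.
Isg15: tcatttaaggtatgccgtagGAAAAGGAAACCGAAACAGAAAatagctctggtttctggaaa
Ifit1: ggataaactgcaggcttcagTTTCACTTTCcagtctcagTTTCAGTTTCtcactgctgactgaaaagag
Ifit3: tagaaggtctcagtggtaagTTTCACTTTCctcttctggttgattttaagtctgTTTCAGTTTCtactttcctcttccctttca
Rsad2: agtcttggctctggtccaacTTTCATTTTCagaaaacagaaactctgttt
Bst2: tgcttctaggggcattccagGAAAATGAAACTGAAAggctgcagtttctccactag

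The window of *Isg15* held 3 matches that overlapped each other, beginning between 78 and 66 bases before the start. *Ifit1* held 2 separate matches at 104 and 85 bases before the start and *Ifit3* held 2 at 156 and 122, with the same letters TTTCACTTTC and TTTCAGTTTC in both genes. In *Rsad2* there was 1 match at 120 bases, and in *Bst2* there were 2 overlapping matches at 130 and 124 bases. The letters of a GAS, TTCNNNGAA, were found in 2 of the 8 genes, *Ifit2* and *Bst2*, against 8.53% of the genes of the count table with a promoter and 22.6% of the 93 genes from other interferon lists, and in *Bst2* they overlapped the ISRE. No ISRE match was found in the windows of *Ifit2*, *Irf7* and *Oasl2*, and *Usp18* had no entry. These matches are letters in a window and are not measured binding sites.

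The libraries held between 17457106 and 24461854 counts, so that 1 count was worth between 0.0389 and 0.0565 CPM, the unit of normalized level used here, in which counts are scaled to library size with the TMM factors of edgeR. Each of the 12307 genes that passed a filter on low counts was compared between the groups in edgeR (quasi-likelihood), with Benjamini-Hochberg adjustment over all of them, and a gene was called at an adjusted p under 0.05. The ISOGK-treated libraries differed more from each other than the vehicle-treated ones, with a chi-square per gene between pairs of 33.2 to 100.3 against 18.2 to 33.8, and no pair came near the value of about 1 that sampling noise gives. Vehicle mouse 4 stood apart in 10 skeletal muscle markers, with a summed level of 72.8 CPM where no other mouse was above 0.681 CPM. Without this mouse 0 members were called and their median log2 fold change was -0.10.

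None of the 9 interferon-stimulated genes was called different between ISOGK-treated and vehicle-treated livers. All 9 passed the filter, 0 of them had an adjusted p under 0.05 in edgeR, and 0 had an unadjusted p under 0.05; DESeq2 and limma-voom also gave 0 calls. Over all genes tested, 7.55% were called, 1.63% were called with an absolute log2 fold change over 1, and 24.2% had an unadjusted p under 0.05. At the share of 7.55%, 9 genes would hold less than 1 call on average, so the count of 0 calls does not set these genes apart. The count of 0 with an unadjusted p under 0.05 was not tested against its share. The values of the groups overlapped for all 9 members, whereas they did not overlap for 15.3% of all genes tested. The fitted log2 fold changes (ISOGK over vehicle) were all below 0, from -0.44 to -0.00 with a median of -0.12, where 49.8% of all genes lay below 0 and their median was 0.00. This sameness of sign rested on single mice, as only 5 of the 9 were below 0 without vehicle mouse 3 and 6 without ISOGK mouse 4.

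**Figure D1:**
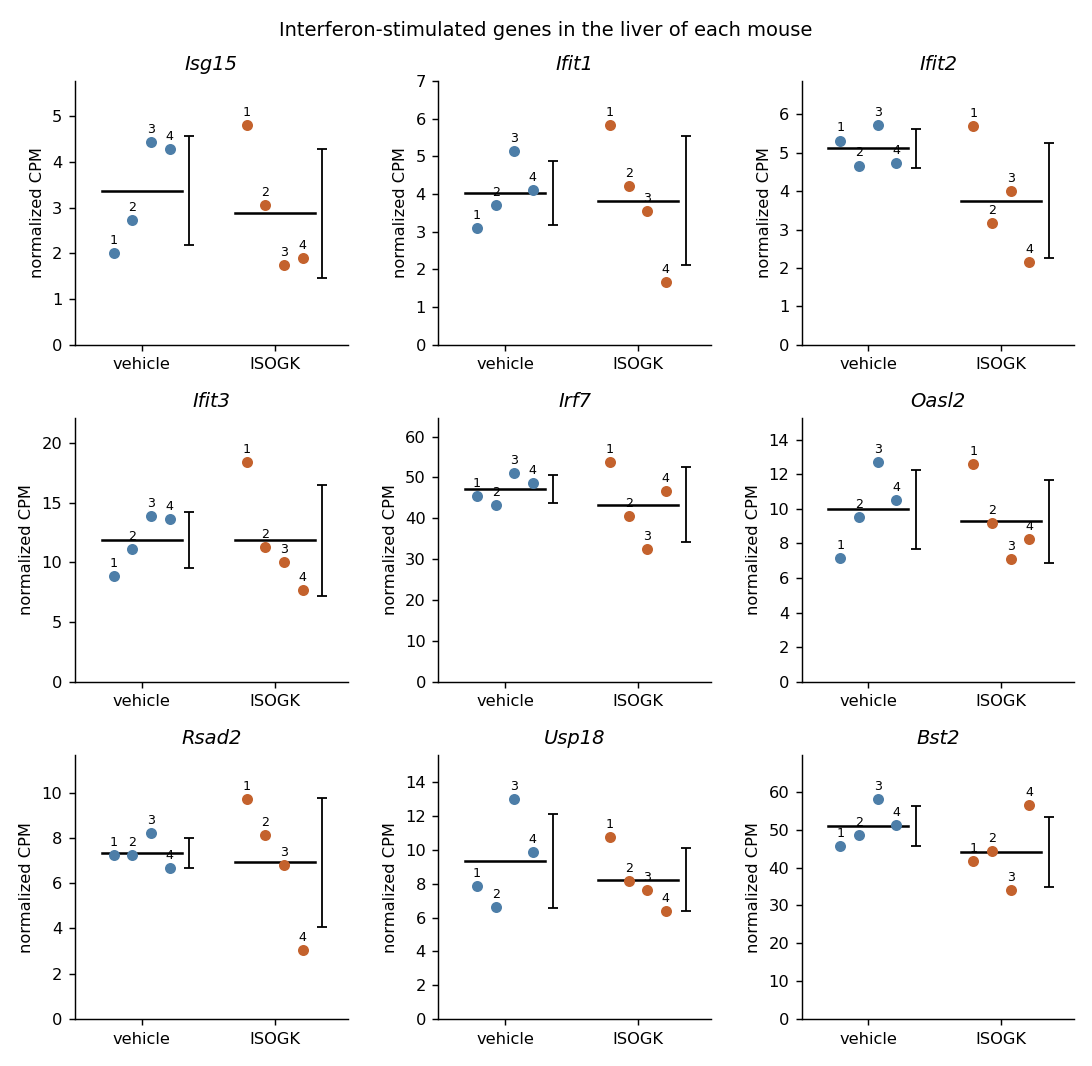
Normalized CPM of each interferon-stimulated gene (y axis, from 0) in the liver of each vehicle-treated (blue) and ISOGK-treated (orange) mouse. Points carry the replicate number, horizontal lines are group means and bars are SD (n = 4 each); the groups overlap in all 9 panels, and mouse 3 is the highest vehicle point in each of them.

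The IFIT proteins bind viral RNA and hinder its translation, and the 3 members lie in the same region of chromosome 19. *Ifit1* (ENSMUSG00000034459.8, chromosome 19, 34640871 to 34650009 in GRCm38, plus strand) was at 3.11, 3.72, 5.14 and 4.11 CPM in vehicle mice 1 to 4 and at 5.84, 4.22, 3.56 and 1.68 CPM in ISOGK mice 1 to 4. The highest and the lowest value of the 8 were both in the ISOGK group. The group levels were 4.02 ± 0.852 and 3.82 ± 1.72 CPM (SD, n = 4), with a log2 fold change of -0.07 ± 0.31 (SE) and a 95% interval of -0.74 to 0.60 (edgeR, adjusted p = 0.912).

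*Ifit2* (ENSMUSG00000045932.12, chromosome 19, 34550694 to 34576419, plus strand) had the largest difference in size of the 9 members. Its level was 5.32, 4.67, 5.72 and 4.73 CPM with vehicle and 5.69, 3.17, 4.01 and 2.15 CPM with ISOGK. ISOGK mice 2, 3 and 4 lay below every vehicle mouse, while ISOGK mouse 1 lay just under the highest of them. The means were 5.11 ± 0.503 and 3.75 ± 1.499 CPM, and the fitted fold was 0.736 with a 95% interval of 0.510 to 1.06 (edgeR, unadjusted p = 0.0948, adjusted p = 0.292). Without ISOGK mouse 1 the log2 fold change of *Ifit2* went from -0.44 to -0.72, and its adjusted p of 0.0658 was the smallest that any member had under any setting tried.

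*Ifit3* (ENSMUSG00000074896.3, chromosome 19, 34583531 to 34588731, plus strand) was at 8.88, 11.2, 13.9 and 13.6 CPM with vehicle and at 18.4, 11.3, 10.01 and 7.65 CPM with ISOGK. As for *Ifit1*, the ISOGK group spanned the whole range of the vehicle group. The means were 11.9 ± 2.34 and 11.8 ± 4.62 CPM, and the log2 fold change was -0.00 with a 95% interval of -0.56 to 0.55 (edgeR, adjusted p = 0.992). Of the 50-base stretches of its exons, 51.2% also occur in its neighbour *Ifit3b*, so the share of the counts that belongs to each is uncertain. *Ifit3b* itself had 2.58 ± 0.286 and 2.14 ± 0.752 CPM, with a log2 fold change of -0.27 (95% interval -0.83 to 0.29).

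The other antiviral effectors were *Rsad2*, whose product viperin makes a nucleotide that stops viral polymerases, *Oasl2*, a member of the 2′-5′-oligoadenylate synthetase family, and *Bst2*, whose product tetherin holds budding virus at the cell surface. *Rsad2* (ENSMUSG00000020641.16, chromosome 12, 26442746 to 26456452, minus strand) was at 7.23, 7.24, 8.22 and 6.66 CPM with vehicle and 9.71, 8.13, 6.79 and 3.04 CPM with ISOGK. The vehicle mice were within a narrow band and ISOGK mice 1 and 4 lay outside it on opposite sides, which left group means of 7.33 ± 0.648 and 6.92 ± 2.85 CPM. The log2 fold change was -0.08 (95% interval -0.69 to 0.52, edgeR adjusted p = 0.887).

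*Oasl2* (ENSMUSG00000029561.17, chromosome 5, 114896936 to 114912234, plus strand) was at 7.18, 9.49, 12.7 and 10.5 CPM with vehicle and 12.6, 9.18, 7.07 and 8.23 CPM with ISOGK. Its highest values were in vehicle mouse 3 and ISOGK mouse 1, which were almost equal, and its lowest were in vehicle mouse 1 and ISOGK mouse 3. The log2 fold change was -0.10 (95% interval -0.54 to 0.34, edgeR adjusted p = 0.799).

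*Bst2* (ENSMUSG00000046718.8, chromosome 8, 71534255 to 71537456, minus strand) was at 45.8, 48.5, 58.1 and 51.4 CPM with vehicle and 41.6, 44.4, 34.2 and 56.4 CPM with ISOGK. ISOGK mice 1, 2 and 3 lay below all vehicle mice, whereas ISOGK mouse 4 was above all but one of them. The log2 fold change was -0.21 (95% interval -0.51 to 0.10, edgeR adjusted p = 0.399). *Bst2* was the only member with its highest ISOGK value in a mouse other than mouse 1.

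*Isg15* encodes a ubiquitin-like protein that is attached to other proteins, and *Usp18* encodes the protease that removes it and also restrains the interferon receptor. *Isg15* (ENSMUSG00000035692.6, chromosome 4, 156199424 to 156200818, minus strand) was at 2.01, 2.73, 4.44 and 4.29 CPM with vehicle and 4.81, 3.06, 1.75 and 1.89 CPM with ISOGK. Both groups held mice at about the same low and high levels, with means of 3.37 ± 1.19 and 2.88 ± 1.41 CPM. The fitted fold was 0.856 with a 95% interval of 0.505 to 1.45 (edgeR, adjusted p = 0.743), from 31 to 114 counts per library.

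*Usp18* (ENSMUSG00000030107.10, chromosome 6, 121245906 to 121270917, plus strand) was at 7.88, 6.61, 13.0 and 9.87 CPM with vehicle and 10.8, 8.18, 7.63 and 6.39 CPM with ISOGK. Vehicle mouse 3 was the highest of the 8, followed by ISOGK mouse 1. The log2 fold change was -0.18 (95% interval -0.66 to 0.30, edgeR adjusted p = 0.664). Over 124 exonic bases *Usp18* overlaps *Gm44148* on the opposite strand, and whether counting used strand is not given in the sources used here.

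*Irf7* encodes the transcription factor that amplifies the production of type I interferon. It lies on chromosome 7 (ENSMUSG00000025498.15, 141262706 to 141266481, minus strand) and was at 45.4, 43.3, 51.2 and 48.6 CPM with vehicle and 53.8, 40.6, 32.4 and 46.7 CPM with ISOGK. The highest and lowest mice of the 8 were again both in the ISOGK group, ISOGK mouse 1 and ISOGK mouse 3. The log2 fold change was -0.12 (95% interval -0.41 to 0.18, edgeR adjusted p = 0.645). *Irf7* shares 45 exonic bases with *Phrf1* on the opposite strand.

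**Figure D2:**
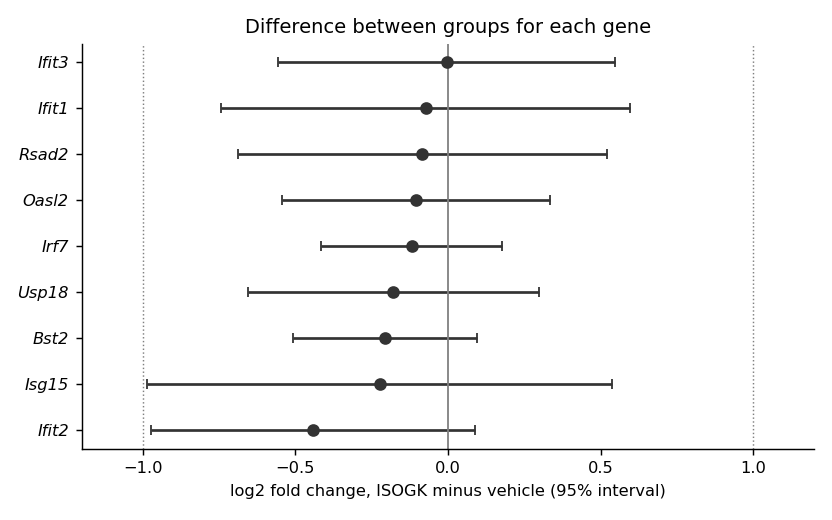
Log2 fold change of each interferon-stimulated gene, ISOGK over vehicle (x axis), with its 95% interval from edgeR (bars, n = 4 mice per group). All 9 intervals include 0 and lie within the dotted lines at -1 and 1.

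These 95% intervals bound how large a difference the data could hide. None of the 9 reached a change of 1 on the log2 scale in either direction, and that of *Isg15* came closest, at -0.99. The widest upper bounds were those of *Ifit1* and *Ifit3*, at 0.60 and 0.55.

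Per length of exon, the members differed widely in level. In vehicle-treated liver *Bst2* was highest, at 56.4 ± 5.83 CPM per kilobase of the union of its exons, followed by *Irf7* at 12.5 ± 0.917, *Ifit3* at 6.81 ± 1.34, *Isg15* at 4.45 ± 1.57 and *Usp18* at 3.35 ± 1.00. *Rsad2*, *Oasl2*, *Ifit1* and *Ifit2* closed the order at 1.69 ± 0.1495, 1.56 ± 0.359, 1.51 ± 0.321 and 1.30 ± 0.128 CPM per kilobase. The ranges of *Ifit3* and *Isg15*, of *Isg15* and *Usp18*, and of each neighbouring pair among the last 4 overlapped, so their order was not resolved, while *Bst2*, *Irf7* and *Ifit3* were separated from each other. For *Irf7* the union was 1 block of 3776 bases that covered the whole gene, any introns included, so its level per kilobase may be too low. That of *Ifit3* rests on counts whose division with *Ifit3b* is uncertain.

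The members spread widely among mice given the same treatment. The SD of log2 CPM within groups was largest for *Isg15* (0.60), *Ifit1* (0.56) and *Rsad2* (0.52) and smallest for *Irf7* and *Bst2* (both 0.23), with a median over all genes of 0.21. Since low counts spread more, each member was also placed among the 500 genes of nearest mean level on either side of it. There *Rsad2* was at the 96.2 percentile of spread, *Ifit1* at the 95.4, *Ifit3* at the 95.3 and *Isg15* at the 94.5, while *Irf7* and *Bst2*, the members with the highest CPM, were at the 80.8 and 81.7 percentiles. All 9 members thus lay above the median spread of genes at their level; the percentiles are descriptions of these 8 libraries, without a test.

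**Figure D3:**
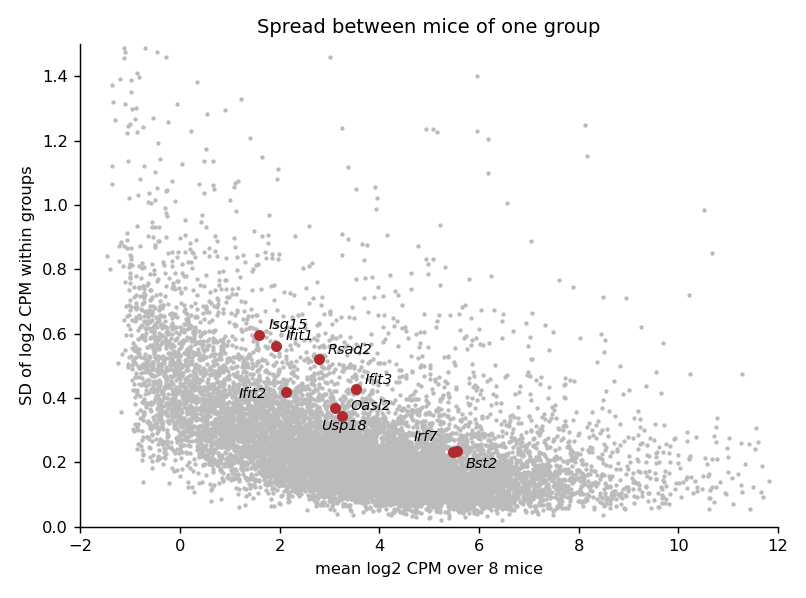
SD of log2 CPM within groups (y axis) against mean log2 CPM over 8 mice (x axis) for the genes tested (grey) and the interferon-stimulated genes (red). The 9 members lie in the upper part of the cloud at their level; 28 genes above the y limit and 40 beyond the x limit are not drawn.

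The highest mouse of each group was the same for most of the members, while the order of the other mice differed between genes. Vehicle mouse 3 had the highest vehicle value for 9 of the 9 genes, and ISOGK mouse 1 had the highest ISOGK value for 8 of the 9. Over all genes tested the same mice were highest in their group for 23.6% and 20.3%. Averaged over the members as log2 CPM minus the mean of the gene over 8 mice, vehicle mice 1 to 4 were at -0.14, -0.03, 0.39 and 0.18 and ISOGK mice 1 to 4 at 0.42, -0.03, -0.28 and -0.52. The difference between the highest and the lowest ISOGK mouse was therefore larger than that between any pair of vehicle mice, and the highest mice of both groups were at about the same level.

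**Figure D4:**
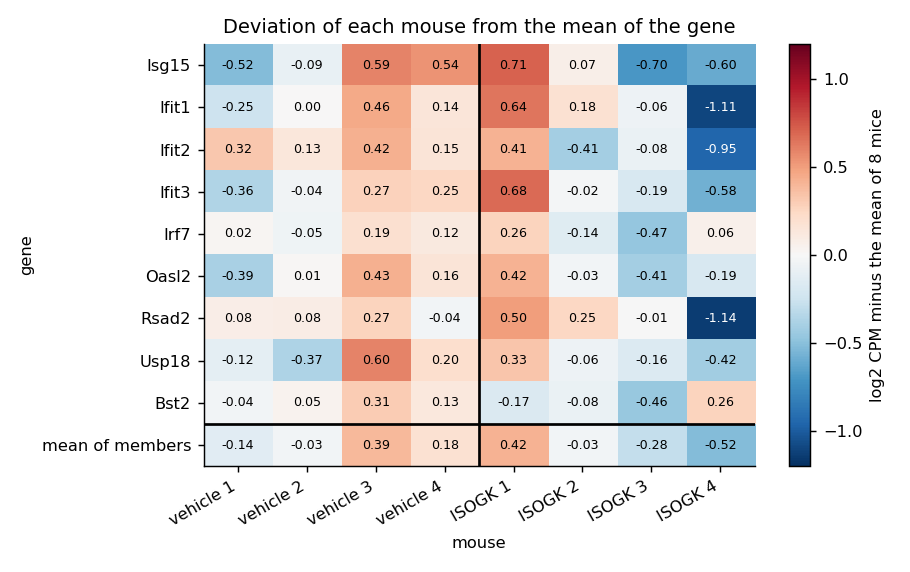
Log2 CPM of each gene in each mouse minus the mean of that gene over the 8 mice (colour and printed value), with the mean over the 9 genes in the bottom row. All 9 genes are above their mean in vehicle 3 and below it in ISOGK 3. *Bst2* departs from the other genes in ISOGK 1, and *Bst2* and *Irf7* do so in ISOGK 4.

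Pearson's r of each member with the mean of the other 8 was 0.94 for *Isg15*, 0.88 for *Ifit3* and *Oasl2*, 0.85 for *Usp18* and 0.80 for *Ifit1*. It was lower for *Ifit2* (0.67), *Rsad2* (0.62) and *Irf7* (0.61), and 0.11 for *Bst2*. These values describe 8 libraries of both groups, whose points share library preparation, depth and cell composition, and for *Ifit3* also sequence with its neighbours. *Bst2* followed the other members in the vehicle group, with its highest value in mouse 3, and departed from them among the ISOGK-treated mice.

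Outside the set, the 8 genes whose pattern over the 8 libraries was most like the mean of the members were *Sncaip* (Pearson's r = 0.97), *Chaf1a* (0.94), *Slc7a8* (0.94), *Ifi47* (0.94), *0610040J01Rik* (0.93), *Ifi211* (0.93), *Sipa1* (0.93) and *Sox17* (0.92). *Ifi47*, an immunity-related GTPase gene, and *Ifi211*, of a family of DNA-binding proteins, are known to respond to interferon. The r values are the highest of 12307 genes tested less the members and are given as descriptions over 8 libraries.

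Cell type markers were compared between the same mice, because in bulk liver fewer cells of a type and less RNA per cell cannot be told apart. The summed level of 9 T and NK cell markers was 4.87 to 10.2 CPM with vehicle, highest in mouse 3, and 6.55 to 14.0 CPM with ISOGK, highest in mouse 1. Those of 5 neutrophil markers were 9.33 to 14.3 CPM and 11.1 to 26.4 CPM, again highest in vehicle mouse 3 and ISOGK mouse 1. Most members were highest in their group in these mice as well, and no other of the 8 marker lists had both of them at the top of its sum. This was read off after all 8 lists were compared. Of the 9 T and NK cell markers, 6 passed the filter. Vehicle mouse 3 was highest in its group for 5 of the 9 and ISOGK mouse 1 for 6. Of the 5 neutrophil markers, each of these mice was highest in its group for 4. The summed Kupffer cell and macrophage markers were highest in vehicle mouse 1 and ISOGK mouse 1. Single markers of this list were divided. Vehicle mouse 1 was the highest of its group for 5 of the 10 and the lowest for 2, and ISOGK mouse 1 was the highest for 7. Plasmacytoid dendritic cell and sinusoidal endothelial markers were highest in vehicle mouse 3 and ISOGK mouse 3, and B cell markers in vehicle mouse 3 and ISOGK mouse 2. Hepatocyte and skeletal muscle markers were highest in mouse 4 of both groups. Within the neutrophil list, *S100a9* was called higher with ISOGK (log2 fold change 1.31, edgeR adjusted p = 0.0149; 0.0522 without vehicle mouse 2). The part of these cells in the levels of the members was not tested.

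The 10 Kupffer cell and macrophage markers summed to 1302 to 1625 CPM with vehicle and 1026 to 1346 CPM with ISOGK, and no marker of the list was at 0 in any library. Of these, 9 had a log2 fold change below 0 and 1, *Cd68*, was called lower (-0.57, edgeR adjusted p = 0.00900). Over all genes tested, 49.8% lay below 0 and 3.44% were called lower. Plasmacytoid dendritic cell markers, from cells known for the release of type I interferon, summed to 8.83 to 11.5 CPM and 6.12 to 9.27 CPM over 5 genes, of which 1 was at 0 in at least 1 library. Only 2 of the 5 passed the filter. Most of the sum was *Tcf4*, at means of 7.95 and 5.81 CPM (log2 fold change -0.45, edgeR adjusted p = 0.127). *Siglech* was at 1.06 and 1.09 CPM (0.03, adjusted p = 0.963). Whether the number of these cells differed between the groups was not tested. B cell markers were at 0.983 to 1.67 and 0.733 to 3.11 CPM, and sinusoidal endothelial markers at 259 to 282 and 244 to 290 CPM. The 5 hepatocyte markers, which include albumin, summed to 145302 to 157417 CPM with vehicle and 133729 to 168968 CPM with ISOGK, so the labelled tissue showed its defining genes. All of these sums overlapped between the groups, and their part in the results was not tested.

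In the rest of the interferon pathway, 8 genes were called, each of them lower with ISOGK than with vehicle. They were found among 112 tested genes from 7 other lists (131 genes listed, 118 in the table), which is 7.14%. Over all genes tested 7.55% were called in either direction, 3.44% lower and 4.11% higher (423 and 506 genes). With scaling by library size alone the split over all genes turned to 804 lower and 262 higher, and the lists held 16 called genes, all lower. Of the 112, 82 (73.2%) had a log2 fold change below 0, and the median was -0.23, against 49.8% and 0.00 over all genes. The group ranges did not overlap for 13 of the 112 in the lower direction, beside 7.36% of all genes tested. In the higher direction they did not overlap for 2 of the 112, beside 975 of all 12307 genes tested. The share of all genes tested without overlap in either direction was 15.3%.

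By role, the ligands were almost unmeasured, as only *Ifng* of 13 genes was in the table and it did not pass the filter. Of 15 tested genes for receptors and JAK-STAT signalling 0 were called in edgeR. An unadjusted p under 0.05 was found for 7 of the 15, beside 24.2% of all genes tested. Of these 7, 4 were in the lower and 3 in the higher direction, and the list median was -0.10 on the log2 scale. The smallest adjusted p values were those of the receptor kinase gene *Jak2* (-0.58, edgeR adjusted p = 0.0735), the interferon gamma receptor gene *Ifngr1* (-0.30, 0.112) and *Il10rb* (-0.33, 0.138), a receptor chain for interferon lambda. The 3 in the higher direction, chosen after their values were seen, were the receptor genes *Ifngr2* (0.27, edgeR adjusted p = 0.164) and *Ifnar2* (0.18, 0.188) and the phosphatase gene *Ptpn11* (0.18, 0.206), and the groups of *Ifnar2* and *Ptpn11* did not overlap. None of the genes of this list thus passed the threshold in either direction.

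Among 21 tested sensors, adaptors and interferon regulatory factors, *Ifih1*, which encodes the RNA sensor MDA5, was lower with ISOGK. Its level was 18.8 to 20.8 CPM with vehicle and 10.01 to 15.8 CPM with ISOGK, without overlap (log2 fold change -0.62, edgeR adjusted p = 0.0164). *Irf5* (-0.59, adjusted p = 0.0869) and *Ddx58*, which encodes the sensor RIG-I (-0.39, adjusted p = 0.110), did not pass, and the median of the list was -0.16.

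Of the 4 genes for attaching ISG15 to proteins, *Uba7*, the activating enzyme, was lower with ISOGK, at 6.97 to 10.2 CPM with vehicle and 4.19 to 6.96 CPM with ISOGK (log2 fold change -0.63, edgeR adjusted p = 0.0498). The ligase gene *Herc6* (-0.49, adjusted p = 0.0537) lay just past the threshold without overlap of its groups, and the conjugating enzyme gene *Ube2l6* had -0.29 (adjusted p = 0.389). The members *Isg15* and *Usp18*, the modifier and its protease, had -0.22 and -0.18. Whether they differed from *Uba7* in their change was not tested.

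In the OAS and RNase L list, 0 of 8 genes were called by edgeR and 1 had an unadjusted p under 0.05. *Oas3* had -0.62 (edgeR adjusted p = 0.0515) with groups that did not overlap, *Oas2* had -0.46 (0.229) and *Oas1a* had -0.38 (0.316). The median of the list was -0.19, beside -0.10 for the member *Oasl2*.

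The longest list, 39 other genes induced by type I interferon, held 4 called genes (10.3%). Beside this, 7.55% of all genes tested were called in either direction and 3.44% were called lower. *Parp14*, an ADP-ribosyltransferase gene, was at 38.0 to 46.3 CPM with vehicle and 22.4 to 32.5 CPM with ISOGK (log2 fold change -0.64 ± 0.12, edgeR adjusted p = 0.00944). *Eif2ak2*, which encodes the RNA-dependent kinase PKR, was at 11.4 to 13.2 and 7.02 to 9.07 CPM (-0.59, adjusted p = 0.0155). *Samd9l* (-0.82, adjusted p = 0.0314) and the helicase gene *Ddx60* (-0.89, adjusted p = 0.0393) were the other two, and the groups of all 4 were apart.

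Of 25 tested targets of interferon gamma and IRF1, 2 were called (8%), beside 7.55% of all genes tested in either direction and 3.44% lower. *Gbp7*, a guanylate-binding protein gene, was at 5.90 to 8.80 CPM with vehicle and 1.78 to 5.003 CPM with ISOGK (log2 fold change -1.15, edgeR adjusted p = 0.0281). *Irf1* was at 30.1 to 36.1 and 21.1 to 28.5 CPM (-0.45, adjusted p = 0.0348), and *Iigp1* had -0.62 (adjusted p = 0.0814). This list showed the same mice at the top as the members, with vehicle mouse 3 highest of its group for 23 of 25 genes (92%) and ISOGK mouse 1 for 22 (88%).

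The number of called genes in these lists depended on single mice. So did that over all genes tested, which was 929 with all mice and as few as 379 with a mouse left out. In these lists the number was 2 without vehicle mouse 2, vehicle mouse 3 or ISOGK mouse 2, 5 without vehicle mouse 1 and 15 without ISOGK mouse 1. *Parp14* was called in each of these fits, whereas *Uba7* was lost without any mouse other than ISOGK mouse 1 (adjusted p up to 0.140). The call of *Uba7* also ended with limma-voom (adjusted p = 0.0513), in edgeR without the robust option (0.0541) and with the replicate block (0.0746). *Ddx60* was lost without vehicle mouse 1, 2, 3 or 4 or ISOGK mouse 2 or 4, and *Irf1* without vehicle mouse 1, 2 or 3 or ISOGK mouse 2 or 4 (adjusted p up to 0.108 and 0.0999). *Samd9l* was lost without vehicle mouse 1, 2 or 3 or ISOGK mouse 2, and *Gbp7* without vehicle mouse 2 or 3 or ISOGK mouse 2 (up to 0.105 and 0.0887). *Ifih1* was lost without vehicle mouse 2 or ISOGK mouse 2 (0.0608 and 0.0522) and *Eif2ak2* without vehicle mouse 3 (0.0553).

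**Figure D5:**
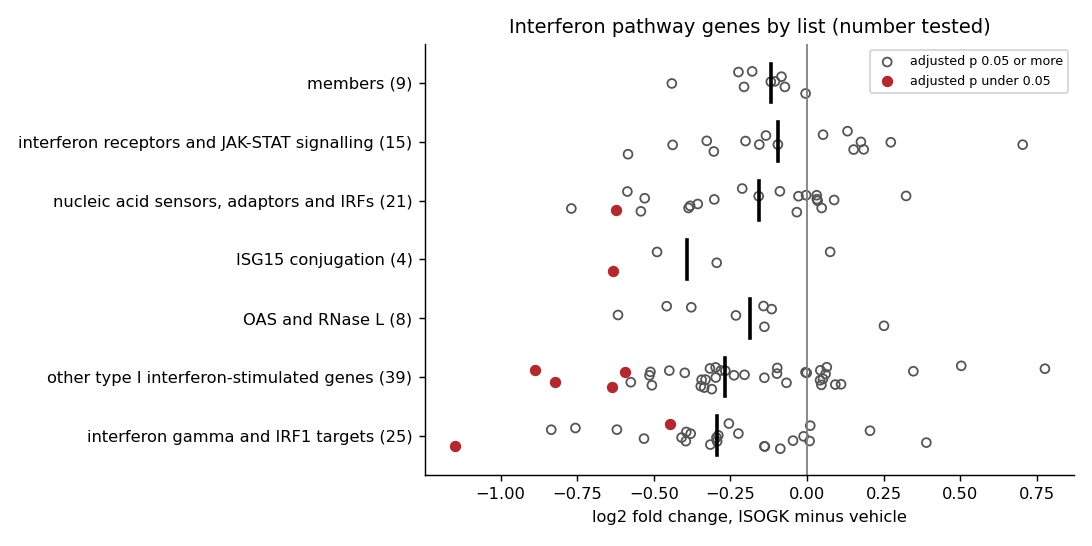
Log2 fold change, ISOGK over vehicle (x axis), of each tested gene of the interferon pathway by list, with list medians as vertical bars and the number tested in parentheses. Filled points have an adjusted p under 0.05 in edgeR; all 8 lie below 0 and none of them is among the 9 members.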

How the data were processed

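RNA libraries of 8 livers were compared, 4 per group, and groups and replicate numbers were taken from the labels. Single-end reads were aligned by the authors with HISAT2 to the Ensembl mouse genome (mm10 in the submitters' processing notes) and counted with StringTie. The deposited counts are raw whole numbers, 1 row per gene symbol. Ensembl's release and whether counting used strand are not given in the sources used here. Column names with DMSO were taken as the vehicle group.

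Genes were filtered with filterByExpr (minimum count 10, minimum total 15), scaled by TMM factors and fitted in edgeR 4.0.16 (R 4.3.3), with robust quasi-likelihood tests. Benjamini-Hochberg adjustment ran over all 12307 genes tested, and the common biological coefficient of variation was 0.164. Log2 CPM used a prior count of 2. The test was checked on simulated data with known changes. The simulation gave every gene the same dispersion in both groups, so it does not cover the wider spread of the members or of the ISOGK mice. Intervals are 95% intervals of the fit.

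The members and gene lists were chosen with earlier results of these data known. The genes named were all members, every called gene and the 3 with the smallest adjusted p of each list, the 8 most like the mean of the members, and markers that were called. *Ifit3b* was added for the sequence it shares with *Ifit3*, and *Tcf4* and *Siglech* as the plasmacytoid dendritic cell markers that passed the filter. Some items are not reported here. Coordinates and exon lengths are those of GENCODE M21 (GRCm38). The 50-base stretches were counted as shared when identical in transcripts of another gene, each read in its own direction only. Alternatives were DESeq2 1.42.0, limma-voom (limma 3.58.1), size factors, library size alone, other filters, no robust option, a replicate block and each mouse left out. The replicate numbers were not taken as pairs. Counts without molecular identifiers give precision for counting error only.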

Additional observations from a re-analysis of the deposited data

Results flagged for a closer look

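In each group of 4 mice, a value was looked at again when its gap to the nearest other mouse was a larger part of the range of the group than Dixon's 95% critical value. This held for 10 of 278 groups of values, where chance gives about 1 in 20, or 13.9, and for 0 of the 18 groups of the 9 members. In ISOGK mouse 1 the levels of *Irf5* (18.6 CPM, the other ISOGK mice 10.3 to 11.3), *Ifi211* (7.80, others 3.51 to 4.24), *Cxcl10* (5.30, others 1.57 to 2.16), *Sncaip* (1.42, others 0.509 to 0.633) and *Sox17* (1.08, others 0.679 to 0.739) stood above, and *Trim25* stood below (70.6, others 100.6 to 104.5). *Oas1a* was low in ISOGK mouse 3 (3.34 CPM, others 6.39 to 7.01), *Ifi44* in ISOGK mouse 4 (1.57, others 2.40 to 2.54) and *Ifnar2* in vehicle mouse 1 (64.8, others 68.3 to 68.5). The summed skeletal muscle markers were high in vehicle mouse 4, at 72.8 CPM, where the other vehicle mice were at 0 to 0.506.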

How the results depend on the processing

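Under the 16 alternatives, 0 of the 9 members was called, and of the 144 member fold changes 10 changed sign, of *Ifit3* (5), *Ifit1* (2), *Oasl2*, *Rsad2* and *Usp18*, all on leaving out a mouse. The member median was -0.30 to -0.02 when each mouse was left out, and -0.26 with library size alone, where the median of all genes was -0.13. Genes called numbered 1435 with DESeq2 and 379 to 1235 when each mouse was left out, against 929. Called genes of the other interferon lists numbered 16 with DESeq2, 16 with library size alone, and 2 to 15 when each mouse was left out, against 8. The cause was not tested. With the replicate block, 827 genes, 0 members and 9 genes of the other lists were called, and *Ifit2* had an unadjusted p of 0.0367 (edgeR adjusted p = 0.176). Deviations of same-numbered mice from their group means had r of -0.01 to 0.08, and only ISOGK mouse 4 correlated best with its own number, so the pairing is not borne out. With 31 to 132 counts per library, *Isg15* and *Ifit1* were the members with the least depth.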
